A study of Mus musculus with 2 samples.

Results

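Dendritic cells rich in MHC class II transcripts were examined in mice at PN15.5, in single-cell transcriptomes of the mandibular first molar and the tissue around it. Of 19015 deposited cells, 17780 had at least 200 detected genes and at most 20% of their unique molecular identifiers (UMIs, which count captured RNA molecules) in mitochondrial genes. The class II dendritic cells were selected on their UMI counts and were the 186 of these kept cells with at least 10 UMIs over H2-Aa, H2-Ab1 and H2-Eb1, at most 1 UMI over Cd79a and Cd79b, fewer than 6 UMIs over C1qa, C1qb and C1qc, and Col1a1 at no more than 2% of UMIs. Of them, 99 came from the Lipo-Clo library and 87 from the Lipo-PBS library. C57BL/6J pups had received clodronate liposomes intraperitoneally at 40 µg/g on 4 occasions, the earliest at PN3.5 and the last at PN12.5 with 3 days between injections (Lipo-Clo), or the same volume of vehicle liposomes on the same days (Lipo-PBS). Each condition had 1 library, both labelled as the same batch, and the number of mice in a library is not given in the sources used here. Clodronate liposomes kill phagocytes that engulf them and do not act on macrophages alone. Because there is no second library per condition, no p-value is given for any difference between the conditions. Every interval below is at the 95% level and covers counting error only. Intervals for ratios of shares treat the cell counts as Poisson counts, which makes them too wide where the shares are large. The H2 values that selected the cells are given as a description.

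Dendritic cells take up antigen, cut it into peptides and display the peptides to T cells. MHC class II molecules, built from an alpha and a beta chain, carry peptides to CD4+ T cells, and their genes are switched on together by the coactivator Ciita. Conventional dendritic cells are commonly divided into cDC1, which depend on Irf8 and Batf3, carry Xcr1 and Clec9a and specialise in presenting antigen on MHC class I, and cDC2, which in mice often carry the lectins Cd209a, Clec10a and Mgl2. Either kind can mature into cells with Ccr7, the receptor that guides them to lymph nodes.

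The promoters of H2-Aa and H2-Eb1 are shown because these genes, with H2-Ab1, selected the cells and class II promoters share short elements known as the X box and the Y box. The Y box letters GATTGG and the X box letters AGCAAC were searched on both strands in the 150 bases before each RefSeq start site (GRCm38.p6, a build used only for these sequences), and matches are in capitals. The window of H2-Aa (minus strand, chr17:34287824-34287973) held GATTGG from 49 to 44 bases before the start. The window of H2-Eb1 (plus strand, chr17:34305717-34305866) held AGCAAC from 92 to 87 bases before the start and GATTGG from 60 to 55, and GATTGG on the other strand, printed as CCAATC, from 35 to 30.
H2-Aa: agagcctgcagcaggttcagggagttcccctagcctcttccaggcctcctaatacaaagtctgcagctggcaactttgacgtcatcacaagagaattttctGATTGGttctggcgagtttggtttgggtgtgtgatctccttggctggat
H2-Eb1: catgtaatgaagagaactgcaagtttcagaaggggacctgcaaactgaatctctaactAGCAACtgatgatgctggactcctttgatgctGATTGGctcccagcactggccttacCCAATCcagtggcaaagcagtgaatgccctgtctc
Among 32851 promoter windows of the same length, 10.9% held GATTGG, 7.75% held AGCAAC and 0.858% held both. A match is a description of the sequence and was not tied to any value below. Only exact letters were searched, so the lack of AGCAAC in the H2-Aa window does not show that an X box is missing.

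The members were set against all other kept cells to describe them. Levels are in CPM, that is, a gene's UMIs per 1000000 UMIs of the cells named. Among genes seen in at least 25% of members, Cd209a had the largest fold, 289, with 372 CPM in members against 1.28 CPM in the other kept cells. H2-Aa, H2-Eb1 and H2-Ab1, which the rule used, followed at 159-fold, 157-fold and 137-fold. The rule did not use Clec4b1, a C-type lectin gene, which stood at 117-fold, or Cd74, the invariant chain that escorts class II to the peptide-loading compartment, at 101-fold. Mgl2 was 86.8-fold and Clec10a 79.3-fold higher, and H2-DMb1 and H2-DMa, which load peptide onto class II, were 46.8-fold and 39.0-fold higher. These 10 genes with the largest folds are either parts of the class II pathway or lectins of the cDC2 kind. The pathway genes go with the class II genes that selected the cells, so their folds do not test the label.

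Genes of the class II pathway outside the rule differed in how many members held them. Cd74 had UMIs in 100% of members, at 17188 CPM, against 1825 CPM in the 345 C1q macrophages (kept cells with at least 6 C1q UMIs), 1614 CPM in the 675 B cells and 78.4 CPM in the 6066 mesenchymal cells. H2-DMa was seen in 77.4% of members and in 19.4% of the macrophages. Ciita, a transcript of low abundance, had UMIs in 14.5% of members and in 1.45% of the macrophages. Flt3, the receptor for the growth factor that dendritic cells need, was seen in 15.6% of members and 0.580% of the macrophages, and Zbtb46, a transcription factor of conventional dendritic cells, in 5.38% and 1.74%. The integrin gene Itgax (CD11c) was seen in 16.1% of members and 3.48% of the macrophages. Klrd1, which encodes CD94 and is also known from natural killer cells, was seen in 37.1% of members and 0.290% of the macrophages.

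Some defining markers of other dendritic cells and of lymphocytes were at or near 0 among members. Siglech, a marker of plasmacytoid dendritic cells, Cd3e of T cells and Ms4a1 of mature B cells had no UMI in 186 members, and each 0 allows at most 5.40 CPM. For Ms4a1 the 0 was partly set in advance, because the Cd79 limit of the rule takes out B cells. Cd207, the langerin gene of Langerhans cells, had 2 UMIs. Broader genes of the same lists were not low: Bst2 of the plasmacytoid list was seen in 32.8% of members, Cd24a of the Langerhans list in 20.4%, and Klrd1 of the T or NK list as above. C1qa, held down by the rule, stood at 20.5 CPM in members and 1854 CPM in the macrophages. Csf1r and Adgre1 (F4/80), which the rule did not use, were seen in 16.1% and 16.7% of members against 70.7% and 59.4% of the macrophages. Lyz2, a lysozyme gene of myeloid cells, was seen in 69.9% of members. Transcripts of some other cell types were plentiful, however. Hbb-bs of red blood cells was seen in 99.5% of members, Col1a1 of connective tissue in 76.3%, S100a9 of neutrophils in 33.3%, Odam of enamel epithelium in 27.4% and Ebf1, a transcription factor of B cells that stromal cells also make, in 17.7%. Genes shared with monocytes were frequent as well, Ms4a6c in 55.4% and Ccr2 in 41.9% of members. The monocyte list summed to 829 UMIs, the general conventional dendritic cell list to 279, the cDC1 list to 478 and the cDC2 list to 1370. Such sums over unlike genes do not rank cell identities. The lectin gene Cd209a was thus high in members, and so were Cd74, H2-DMa and H2-DMb1, which share the class II pathway that selected the cells. Flt3 and Zbtb46 were seen in a minority of cells, and these markers did not separate conventional dendritic cells from monocyte-derived cells.

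The rule cut differently in the libraries. Of 8886 kept Lipo-Clo cells, 151 reached 10 class II UMIs, 136 of these also passed the Cd79 limit, 108 the C1q limit and 99 the Col1a1 limit. Of 8894 kept Lipo-PBS cells, the steps left 157, 149, 132 and 87. The Col1a1 limit, which guards against cells carrying stromal RNA, thus took out 9 Lipo-Clo and 45 Lipo-PBS cells that met every other limit. Just inside the class II limit, at 10 to 12 UMIs, stood 3 Lipo-Clo and 11 Lipo-PBS members, and just outside it, at 7 to 9 UMIs, 9 and 14 cells that passed the other limits. Of 30 cell barcodes found in both libraries, 0 belonged to members.

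Lipo-Clo members carried 400745 UMIs and Lipo-PBS members 282334. A Lipo-Clo member had a median of 3871 UMIs and 1363 genes, and a Lipo-PBS member 3216 UMIs and 1244 genes. Class II UMIs per cell ran from 10 through a median of 70 to 217 in Lipo-Clo and from 10 through 43 to 140 in Lipo-PBS. Per 10000 UMIs of the cell the medians were 183 and 180. In the cells without a subtype gene, described below, the medians were 156 (Lipo-Clo) and 62.9 (Lipo-PBS).

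**Figure D1:**
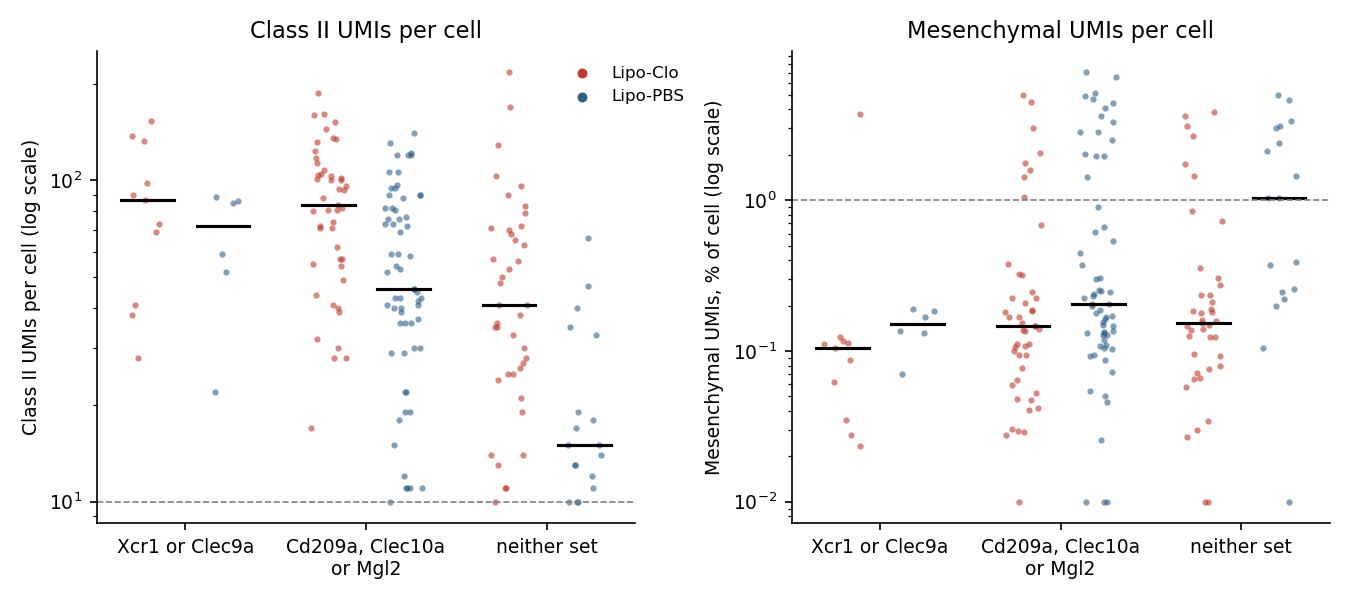
Each point is 1 class II dendritic cell. Cells are split by the core genes described below (Xcr1 or Clec9a, then Cd209a, Clec10a or Mgl2, then neither set). Lipo-Clo and Lipo-PBS stand side by side, with a black bar at the median of each class and library. The left panel plots class II UMIs per cell on a log axis with a dashed line at the limit of 10. The Lipo-Clo and Lipo-PBS medians are 87 and 72, 84 and 46, and 41 and 15 in that order of classes. The right panel plots the percent of a cell's UMIs in 7 mesenchymal marker genes on a log axis, with cells at 0 drawn at 0.01 and a dashed line at 1%, above which lie 15 Lipo-Clo and 26 Lipo-PBS cells.

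RNA of other cells differed between the libraries and has to be read beside every result. Over 1% of UMIs in 7 mesenchymal marker genes were found in 15 of 99 Lipo-Clo members (15.2%, interval 8.74% to 23.8%) and in 26 of 87 Lipo-PBS members (29.9%, 20.5% to 40.6%), and Col1a1 alone had UMIs in 72.7% and 80.5% of members. Haemoglobin genes took 2.64% of Lipo-Clo and 8.64% of Lipo-PBS member UMIs, and mitochondrial genes 0.206% and 1.42%, a gap that mesenchymal cells showed too, at 0.334% and 1.73%. The neutrophil genes S100a8, S100a9, Ngp and Camp took 1.81% and 0.342% of member UMIs. Of their 7263 Lipo-Clo UMIs, 98.0% lay in 7 members, and of their 966 Lipo-PBS UMIs, 95.4% lay in 4 members. The part of these transcripts in the differences below was not tested beyond the values given with such cells left out.

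The dendritic subtypes were separated by core genes, since clusters were few and shifted with the settings. A member with a UMI of Xcr1 or Clec9a was placed in a cDC1 core class and a member with a UMI of Cd209a, Clec10a or Mgl2 in a cDC2 core class. The 2 cores never met in 1 cell: 17 members had the cDC1 core, 110 the cDC2 core, 59 had neither, and 0 of 186 had both. In cells that should lack them, the cDC1 core was seen in 1 of 154 Lipo-Clo and 0 of 191 Lipo-PBS macrophages and in 0 of 2949 and 1 of 3117 mesenchymal cells. The cDC2 core was less particular, at 22.1% and 28.8% of macrophages through Mgl2 and Clec10a, whereas Cd209a had no UMI in any of the 345 macrophages. In mesenchymal cells the cDC2 core was seen in 0.339% and 1.48%.

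The cDC2 core was seen in 47 of 99 Lipo-Clo members (47.5%, interval 37.3% to 57.8%) and in 63 of 87 Lipo-PBS members (72.4%, 61.8% to 81.5%). The log2 ratio of these shares was -0.61 (-1.19 to -0.04). The core was also lower in Lipo-Clo in macrophages (22.1% against 28.8%), B cells (0.229% against 2.10%) and mesenchymal cells (0.339% against 1.48%). Its direction was thus not confined to dendritic cells. Each of the 3 genes had the lower share in Lipo-Clo, Cd209a in 36.4% against 51.7% of members, Mgl2 in 26.3% against 43.7% and Clec10a in 22.2% against 33.3%, although the interval of each single ratio reached past 0. The lower share was in the library with the deeper members. When every member was thinned to 1000 UMIs, which left out 4 Lipo-Clo and 7 Lipo-PBS cells, the shares were 33.7% of 95 and 53.8% of 80 cells and the interval of the log2 ratio, -1.38 to 0.02, just reached 0. Without the members over 1% mesenchymal UMIs they were 46.4% and 77.0%, and with at least 20 class II UMIs required they were 50.5% and 82.8%. With Scrublet doublets left out they were 49.4% and 73.2%, and the interval of the log2 ratio, -1.16 to 0.02, just reached 0. The ratio intervals in this paragraph are too wide for shares of this size, so reaching 0 is not read as equal shares. The share of cells placed with cDC2 by their UMIs over the whole marker lists did not show the difference, at 55.6% and 55.2% (log2 ratio 0.01, -0.58 to 0.60).

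The cDC1 core was seen in 11 of 99 Lipo-Clo members (11.1%, interval 5.68% to 19.0%) and in 6 of 87 Lipo-PBS members (6.90%, 2.57% to 14.4%). The log2 ratio was 0.69 with an interval from -0.87 to 2.41, an interval that these few cells leave wide. Members with neither core made up 41 of 99 (41.4%, 31.6% to 51.8%) in Lipo-Clo and 18 of 87 (20.7%, 12.7% to 30.7%) in Lipo-PBS, and their log2 ratio was 1.00 (0.17 to 1.89). Thinned to 1000 UMIs, the class with neither core held 62.1% and 43.8%. The interval of its log2 ratio, -0.12 to 1.15, included 0 but is too wide for such large shares. Without the members over 1% mesenchymal UMIs this class held 41.7% and 13.1%, with a log2 ratio of 1.67 (0.53 to 2.99).

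**Figure D2:**
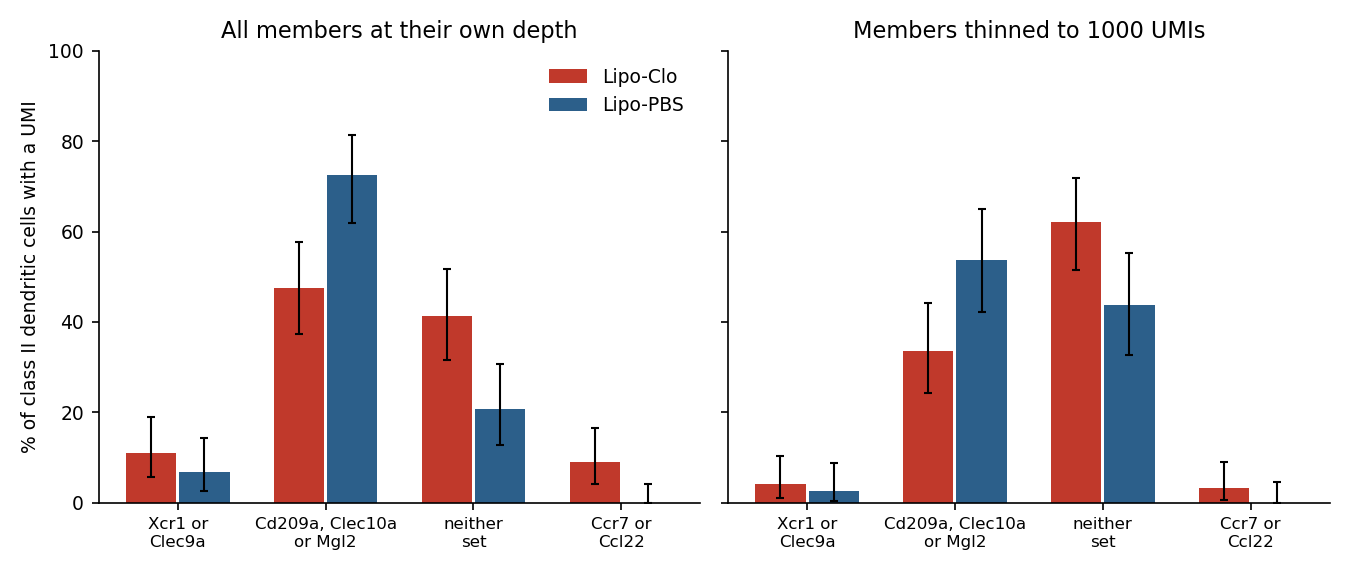
Bars give the percent of class II dendritic cells with a UMI of each core, from 0, for Lipo-Clo and Lipo-PBS, with exact 95% intervals for counting error. The left panel uses cells at their own depth, where the cDC2 core is at 47.5% and 72.4%, and the right panel cells thinned to 1000 UMIs, where it is at 33.7% and 53.8%.

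The cDC1 core and cDC2 core cells differed in genes that had not placed them, with both libraries pooled. Irf8, the transcription factor on which cDC1 depend, had 48 UMIs in 15 of 17 cDC1 core cells (669 CPM) and 2 UMIs in 110 cDC2 core cells (4.91 CPM), a log2 ratio of 7.09 (5.16 to 10.2). In the cDC1 core cells it was seen in 9 of 11 Lipo-Clo and 6 of 6 Lipo-PBS cells, so the pattern was shared by both libraries. Batf3, its partner, was at 293 against 68.7 CPM, Wdfy4, needed for cross-presentation, at 376 against 44.2 CPM, and Cadm1, an adhesion molecule of cDC1, at 209 against 31.9 CPM. Cst3, which encodes the protease inhibitor cystatin C, was at 39273 CPM in cDC1 core and 6737 CPM in cDC2 core cells (log2 ratio 2.54, 2.47 to 2.62), and it was the higher of the pair in each library. Id2, a transcription factor of the dendritic lineage, had a log2 ratio of 2.42, the lysosomal genes Ppt1 and Naaa 2.99 and 2.21, and Havcr2, which encodes the receptor TIM-3, 2.06. The immunoproteasome subunit genes Psmb9 and Psmb8 and the proteasome activator gene Psme1, all used to make peptides for MHC class I, had log2 ratios of 2.18, 1.28 and 1.59.

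The cDC2 core cells were higher in other genes. S100a4, a calcium-binding protein of motile cells, was at 759 CPM in cDC2 core and 27.9 CPM in cDC1 core cells, and Ccr2, the chemokine receptor that brings monocytes and some dendritic cells into tissue, at 280 and 27.9 CPM. Ms4a6c was at 501 and 55.8 CPM and was seen in 70.0% and 11.8% of cells. Clec4b1 was seen in 53.6% of cDC2 core and 5.88% of cDC1 core cells, and Klrd1 in 53.6% and 17.6%. Clec4a3, a lectin receptor, had 99 UMIs in cDC2 core cells and none in cDC1 core cells, with an upper limit of -2.21 on the log2 ratio, and Cd209d, a relative of Cd209a, 54 and none, with an upper limit of -1.32. The signalling adaptors Tyrobp and Fcer1g had log2 ratios of -0.93 and -1.74, the transcription factor Cebpb -1.97, and the endosomal enzymes Ctss and Ifi30, which trim the invariant chain and reduce disulphide bonds in antigen, -1.09 and -1.29. The class II chains did not separate the classes in this way, with log2 ratios of 0.12 for H2-Aa, 0.01 for H2-Ab1 and -0.12 for H2-Eb1, and Cd74 was slightly lower in cDC1 core cells at -0.32. Il1b, an inflammatory cytokine, had a pooled log2 ratio of -1.49 that came from Lipo-Clo, at 173 CPM in cDC1 core and 1135 CPM in cDC2 core cells, whereas Lipo-PBS had 460 and 286 CPM. Flt3 likewise had no common order, with UMIs in 3 of 11 cDC1 core and 4 of 47 cDC2 core cells of Lipo-Clo and in 0 of 6 and 15 of 63 of Lipo-PBS.

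**Figure D3:**
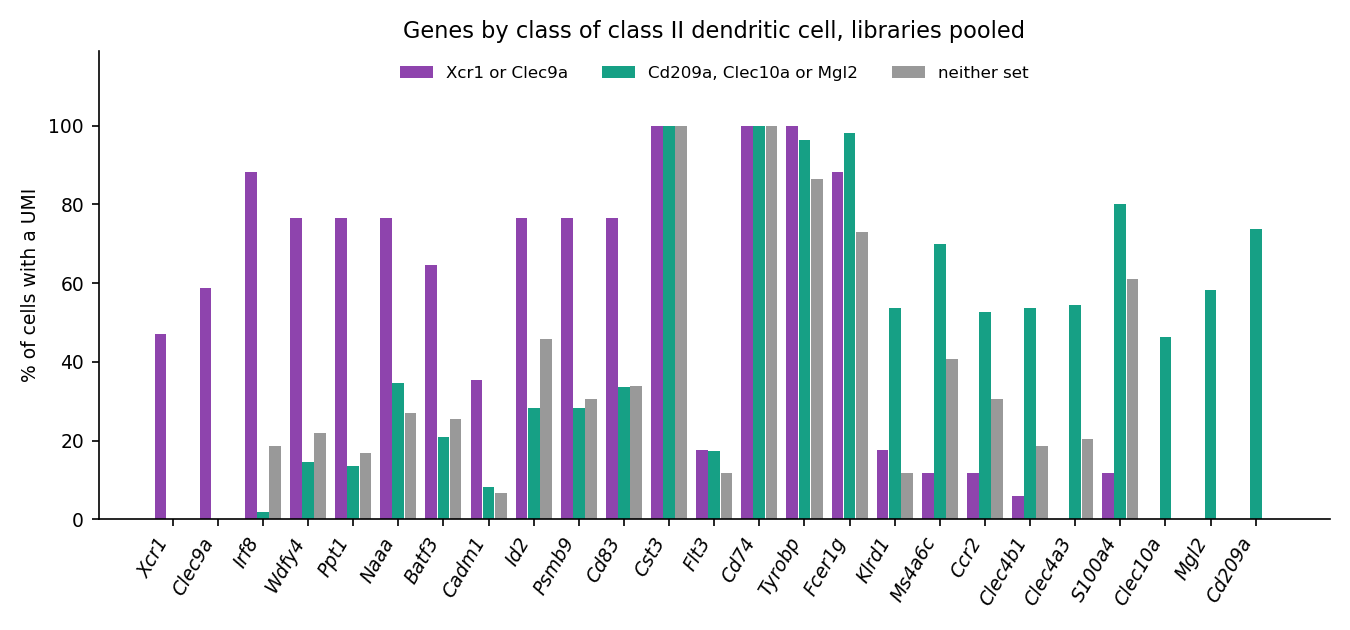
Bars show the percent of cDC1 core, cDC2 core and neither-core cells with a UMI of each gene, both libraries pooled, from 0. Xcr1, Clec9a, Cd209a, Clec10a and Mgl2 placed the cells in their classes and the other genes did not. Irf8 is seen in 88.2% of cDC1 core and 1.82% of cDC2 core cells, and Ms4a6c in 11.8% and 70.0%.

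The class with neither core was not alike in the libraries. Of 18 Lipo-PBS cells in it, 13 had fewer than 20 class II UMIs and 10 had over 1% mesenchymal UMIs, against 7 and 6 of 41 Lipo-Clo cells. Fewer than 20 class II UMIs, over 1% mesenchymal UMIs or at least 50 neutrophil UMIs marked all but 4 of the 18 Lipo-PBS cells and all but 29 of the 41 Lipo-Clo cells. The median class II counts of a neither-core cell were 41 (Lipo-Clo) and 15 (Lipo-PBS), against 84 and 46 in cDC2 core cells and 87 and 72 in cDC1 core cells. At least 3 UMIs over the remaining cDC2 markers were found in 20 of 41 Lipo-Clo and 4 of 18 Lipo-PBS cells, and at least 3 over the remaining cDC1 markers in 10 and 2. A portion of the Lipo-Clo cells without a core gene therefore carried other genes of the same lists.

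Ccr7 and Ccl22, genes of migrating, mature dendritic cells, were found in Lipo-Clo members and in no Lipo-PBS member. A UMI of Ccr7 or of Ccl22, a chemokine of mature dendritic cells, was seen in 9 of 99 Lipo-Clo members (9.09%, interval 4.24% to 16.6%) and in 0 of 87 Lipo-PBS members, which allows a share of up to 4.15%. After thinning to 1000 UMIs the counts were 3 of 95 and 0 of 80, with a lower limit of -1.52 on the log2 ratio, against 0.79 at full depth. The same genes were seen in 3.43% and 5.88% of B cells, which also use Ccr7, and in 0.203% and 0.417% of mesenchymal cells. A pair of Lipo-Clo cells carried most of the program. The first had 6 UMIs of Ccr7, 14 of Ccl22, 16 of Fscn1, the actin-bundling gene of mature dendritic cells, and 7 of Il12b, a subunit of interleukin-12. The other had 10, 1, 10 and 4 UMIs of the same genes and 75 of the chemokine gene Ccl5. In the remaining 7 cells each of Ccr7 and Ccl22 had at most 2 UMIs and Fscn1 had none. Fscn1 was not limited to Lipo-Clo. It had 7 UMIs in 6 Lipo-PBS members with the cDC2 core and 2 UMIs in 1 Lipo-PBS member with neither core. The 12 genes of the mature list summed to 412 CPM in Lipo-Clo against 198 CPM in Lipo-PBS members. These sums include Ccr7 and Ccl22 themselves and the UMIs of the pair above.

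Joint clustering of the 186 members gave 4 clusters. The largest, 86 cells, met the cDC2 list and 63 of its cells had the cDC2 core, so it was called cDC2-like, although haemoglobin genes were among its leading genes. A cluster of 29 cells met the cDC1 list and was led by Irf8, Ppt1, Id2, Cst3 and Wdfy4, and 13 of its cells had the cDC1 core, 6 the cDC2 core and 5 a UMI of Ccr7 or Ccl22. The other 2 clusters, of 54 and 17 cells, were led by genes of connective tissue, such as Tpm1, Igfbp5 and Col1a1 in the larger and Mfap4, Col14a1 and Eln in the smaller, and stayed unnamed. They held 30 Lipo-Clo and 41 Lipo-PBS cells, and all 17 cells of the smaller had over 1% mesenchymal UMIs. Cluster sizes are not read as a difference between the conditions, since these leading genes themselves differed between the libraries.

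Class II dendritic cells were 1.11% of kept cells in Lipo-Clo (interval 0.906% to 1.35%) and 0.978% in Lipo-PBS (0.784% to 1.21%), with a log2 ratio of 0.19 (-0.24 to 0.62). This counting interval included 0, and the order of the libraries depended on the limits and on the denominator. With a class II limit of 5 UMIs the shares were 1.29% and 1.38%, and with a limit of 20 UMIs 1.02% and 0.720%, with a log2 ratio of 0.51 (0.03 to 0.99). Without the cells of the unnamed clusters they were 0.777% and 0.517%, with a log2 ratio of 0.59 (0.03 to 1.16). Among kept cells with a UMI of Ptprc (CD45, the marker of blood-derived cells), members were 47 of 751 (6.26%) with clodronate and 51 of 591 (8.63%) with vehicle, and the log2 ratio was -0.46 (-1.07 to 0.14). Ptprc itself was seen in 47.5% and 58.6% of members. C1q macrophages, the cells at which the treatment was aimed, were 1.73% and 2.15% of kept cells, and B cells 4.92% and 2.68%.

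Levels within the members were then compared between the libraries. A gene was used where at least 10% of the members of either library had a UMI, which left 4658 genes, and one with a ratio of at least 2-fold was counted by size alone. By that rule 304 genes (6.53%) were higher and 617 (13.2%) lower in Lipo-Clo, together 19.8%. The median log2 ratio of Lipo-Clo over Lipo-PBS was -0.04, with 2236 genes above 0 and 2422 below. Among the 1736 genes with at least 50 UMIs, 61 (3.51%) were higher and 104 (5.99%) lower, together 9.5%. All 10 mitochondrial genes with at least 50 UMIs were lower in Lipo-Clo, by log2 ratios from -2.40 to -3.98.

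The class II chains, which selected the cells, summed to 18026 CPM among Lipo-Clo members and 15762 CPM among Lipo-PBS members. The log2 ratio was 0.19 (0.14 to 0.25), and it was -0.15 in cDC1 core, 0.20 in cDC2 core and 1.07 in neither-core cells. Without the members over 1% mesenchymal UMIs all 3 chains were slightly lower in Lipo-Clo, with a median of -0.07. Of 15 genes of class II presentation outside the rule, 10 were higher and 5 lower, with a median of 0.11 and none at 2-fold. Without the members over 1% mesenchymal UMIs their median was -0.18. Cd74 was at 17737 and 16410 CPM (0.11), H2-DMa at 644 and 648 CPM (-0.01) and Ciita at 52.4 and 46.0 CPM (0.19, -0.88 to 1.31). Cd74, too, turned to the other side without the members rich in mesenchymal RNA. Cst3 was at 14239 and 9046 CPM (0.65, 0.59 to 0.72). Within cDC1 core cells its log2 ratio was -0.29 and within cDC2 core cells 0.13, both nearer to 0 than the pooled value, and within neither-core cells it was 1.40.

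Genes of class I presentation stood higher in Lipo-Clo. Of 16 genes, 12 were higher and 4 lower, with a median of 0.37, and 4 were at least 2-fold higher and 1 at least 2-fold lower, against 6.53% and 13.2% of all genes in use (the lower one was Erap1, an aminopeptidase that trims peptides, with 6 and 9 UMIs). The 4 were the immunoproteasome subunits Psmb8 at 761 against 347 CPM (log2 ratio 1.13, 0.80 to 1.48), Psmb9 at 212 against 99.2 CPM (1.10) and Psmb10 at 137 against 56.7 CPM (1.28), and the peptide transporter Tap1 at 20 against 5 UMIs (1.49, 0.04 to 3.26). Psmb8 was seen in 77.8% of Lipo-Clo and 57.5% of Lipo-PBS members. The proteasome activator Psme1 was at 619 and 322 CPM (0.94), while the class I heavy chain H2-K1 and the light chain B2m differed less, at 0.37 and 0.38, and the heavy chain H2-D1 was at -0.05. Within cDC2 core cells alone the median of the list was 0.33, and without members over 1% mesenchymal UMIs it was 0.35.

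Secreted factors and interferon-stimulated genes differed in both directions. Il1b was at 771 CPM among Lipo-Clo and 290 CPM among Lipo-PBS members (log2 ratio 1.41, 1.05 to 1.78) and was seen in 45.5% and 31.0% of members. The neutrophil-attracting chemokine Cxcl2 was at 818 and 372 CPM (1.14), and Cxcl16, which attracts T cells, at 140 and 67.3 CPM (1.05). Ccl5 had 111 and 17 UMIs (2.20), but it was seen in 10.1% of Lipo-Clo and 11.5% of Lipo-PBS members, and a single Lipo-Clo cell, the second of the Ccr7 pair above, held 75 of the UMIs. Ccl4 went the other way, at 833 and 1194 CPM (-0.52). Over the 8 chemokine genes the median was -0.11. Of 8 interferon-stimulated genes 5 were higher and 3 lower, with a median of 0.72 that dropped to 0.25 after thinning to 1000 UMIs. The higher ones included the ubiquitin-like Isg15 (372 against 156 CPM), Bst2, which tethers budding virus (1.08), and Ifi27l2a (0.48), and Isg20, with 8 and 14 UMIs, was at least 2-fold lower (-1.31, -2.77 to 0.04).

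Receptors and transcription factors of dendritic cells differed in both directions. Of 14 pattern recognition and lectin receptors, 4 were higher and 10 lower, with a median of -0.32. Clec4n (dectin-2) had 43 and 8 UMIs (1.92, 0.82 to 3.22) and Clec4e (mincle) 62 and 22 UMIs (0.99), while Cd209d had 17 and 39 (-1.70) and Mrc1, the mannose receptor, 15 and 28 (-1.41). The cDC2 core genes were lower as levels too, Mgl2 at 235 and 542 CPM (-1.21), Clec10a at 157 and 276 CPM (-0.81) and Cd209a at 337 and 421 CPM (-0.32, -0.69 to 0.04). Their levels within cDC2 core cells are not compared, because a UMI of these genes placed a cell in that class. Flt3 had 13 and 20 UMIs (-1.13, -2.26 to -0.05).

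Of 20 transcription factors of dendritic cells, 8 were higher and 12 lower, with a median of -0.31. Tcf4, best known from plasmacytoid dendritic cells but also made by stromal cells, was at 64.9 and 234 CPM (-1.85), and it was also lower without the members over 1% mesenchymal UMIs, at -2.01. Zeb2, which favours cDC2 over cDC1, was at 170 and 347 CPM (-1.03) and Notch2, a receptor that some cDC2 need, at 162 and 315 CPM (-0.96). Spi1 (PU.1), a master factor of myeloid cells, was at 302 and 166 CPM (0.86), Id2 at 272 and 170 CPM (0.68) and Cebpb at 514 and 322 CPM (0.67). Irf8 was at 122 and 88.6 CPM, and its interval, -0.26 to 1.22, included 0.

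**Figure D4:**
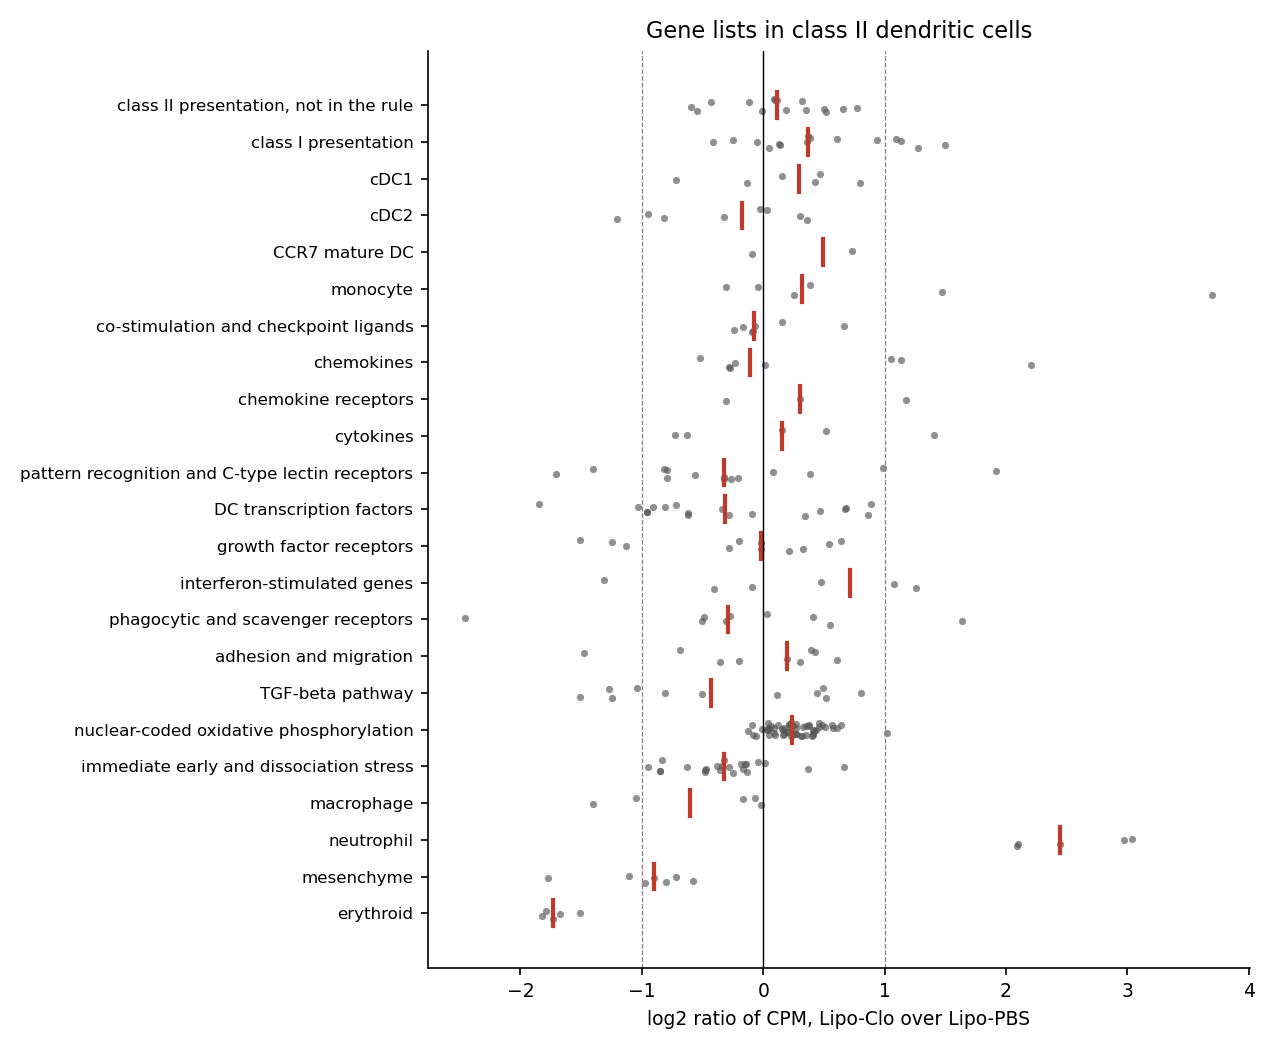
Each point is a gene with at least 20 UMIs, placed by its log2 ratio of CPM in Lipo-Clo over Lipo-PBS members, 1 row per gene list. A red bar is the median of all genes in use of a list, and dashed lines mark 2-fold. The neutrophil median is at 2.44, the class I presentation median at 0.37 and the class II presentation median at 0.11, while the mesenchyme and erythroid medians are at -0.90 and -1.73.

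Of the 10 genes with the largest ratio among those with at least 50 UMIs, 8 were genes of neutrophils or of enamel-forming cells. They were the neutrophil genes Ngp (3.04), S100a8 (2.97), Camp (2.44), Lcn2 (3.93), Stfa1 (268 against 22 UMIs) and Cstdc5 (4.54) and the enamel genes Odam (2.28) and Ambn (2.21). A single Lipo-Clo cell held 73.8% of that library's Ngp UMIs. For Camp, Ambn and Stfa1 the top Lipo-Clo cell held 69.0%, 64.0% and 50.4%. For Cstdc5 a single cell held 49.7% of the 463 Lipo-Clo UMIs. Within cDC2 core cells Ambn was at 0.20 and Odam at 2.01. Without the 11 members that had at least 50 neutrophil UMIs, Cstdc5 turned to -0.74 and Stfa1 to -1.52. Ifitm1, an interferon-induced membrane protein, was seen in 23.2% of Lipo-Clo and 11.5% of Lipo-PBS members (2.60, 1.97 to 3.29). In B cells it was also higher in Lipo-Clo, at 1.70, while in the C1q macrophages it was at -0.10 and in mesenchymal cells at -0.03.

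Plac8, a gene of monocytes and of plasmacytoid dendritic cells among others, was the least concentrated of the 10, since no Lipo-Clo cell held more than 20 of its 129 UMIs. It was found in 32 of 99 Lipo-Clo members (32.3%) and, with 7 UMIs, in 4 of 87 Lipo-PBS members (4.60%), a log2 ratio of 3.70 (2.61 to 5.04). The Lipo-Clo cells with Plac8 comprised 7 of 11 cDC1 core, 13 of 47 cDC2 core and 12 of 41 neither-core cells, and 6 of the 32 had at least 50 neutrophil UMIs but held only 13 of the 129 UMIs. All 4 Lipo-PBS cells with Plac8 had the cDC2 core, and within cDC2 core cells the log2 ratio was 3.14 (2.01 to 4.51). Plac8 was also higher in Lipo-Clo in the macrophages (2.72), B cells (1.22) and mesenchymal cells (0.72), so its direction was not confined to dendritic cells. Of the 6 monocyte genes in use, Plac8 included, 4 were higher and 2 lower, with a median of 0.32, and 2 were at least 2-fold higher, against 6.53% of all genes in use. The second of these was Ifitm6, at 197 and 70.8 CPM (1.48), while Cd14 was at 0.39, Ms4a6c at 0.25, Ms4a4c at -0.04 and Ccr2, at 195 and 241 CPM, at -0.31. Ly6c2, a surface marker of classical monocytes seen in too few members to be in use, had 12 UMIs in 6 cDC2 core and 5 UMIs in 3 neither-core cells of Lipo-Clo and none in Lipo-PBS members.

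The 10 genes with the lowest ratio at 50 UMIs, mitochondrial and haemoglobin genes left out, held several of connective tissue and smooth muscle. Eln (elastin, -2.55), Sfrp2, a secreted Wnt modulator (-2.25), Tagln (-2.13) and Acta2 (-2.05), both of smooth muscle, and Plac9 (-1.78) were among them, and all 7 mesenchymal markers, Col1a1 limited by the rule among them, were lower, with a median of -0.90. In mesenchymal cells themselves the median of those 7 markers was 0.02. Within cDC2 core cells Tagln and Acta2 were at 0.53 and 0.26, on the other side of 0, and without members over 1% mesenchymal UMIs they were at -3.81 and -3.13. Man1a, a mannosidase that trims sugar chains in the Golgi, was the lowest of these 10, with 9 and 44 UMIs in 9.09% and 33.3% of members (-2.79, -4.01 to -1.74), and it was also lower in mesenchymal cells (-1.13). Pam (-1.86), Auts2 (-1.86) and Tcf4 were also among them. The erythroid list had a median of -1.73 and was also lower in mesenchymal cells, at -1.29.

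Broad programs also differed between the libraries. Of 56 nuclear-coded genes of oxidative phosphorylation 51 were higher in Lipo-Clo, with a median of 0.24, and the median of the same genes in mesenchymal cells was 0.31. Of 23 immediate early and dissociation stress genes 20 were lower, with a median of -0.32, among them Jun (-0.83) and Fos (-0.48). Of 8 cycling genes 7 were higher, with a median of 0.99 against 0.60 in mesenchymal cells, such as Birc5 at 59 and 10 UMIs (2.06) and Ube2c at 89 and 18 UMIs (1.80). Members with at least 2 UMIs over 6 cycling genes were 15 of 99 and 6 of 87, with a log2 ratio of 1.14 (-0.31 to 2.79), and after thinning 7 of 95 and 4 of 80, with a log2 ratio of 0.56 (-1.42 to 2.78). Of 10 phagocytic and scavenger receptor genes 4 were higher and 6 lower, with a median of -0.29. Among them, the integrin chain Itgb2 was higher (53 and 12 UMIs, 1.64) and the scavenger receptor Cd163, a macrophage gene, lower (7 and 27 UMIs, -2.45). Of the 6 macrophage genes in use, C1qb and C1qc were limited by the rule. Of the other 4, Mrc1 was lower as given above, and Apoe, Adgre1 and Csf1r were at -0.16, -0.06 and -0.02, each with an interval that included 0. The median of all 6 was -0.60, and it was -0.014 when members were held to fewer than 3 C1q UMIs.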

How the data were processed

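Single-cell libraries were made from mandibular first molars and surrounding tissues digested with dispase (4 mg/mL) and collagenase I (2 mg/mL) for 30 min and passed through a 40 µm strainer. The counts the authors deposited are UMIs per gene in each called cell, without normalization, for 34285 genes (34244 symbols). The file headers name Cell Ranger 8.0.0, whereas the submitters' processing notes name Cell Ranger 3.1.0, Seurat 3.1.1 and GRCm39 (mm39). How reads shared by close relatives (the H2, Clec4, Cd209, Stfa and haemoglobin genes) were divided is not given in the sources used here. Total depth was 31053404 UMIs in 9362 Lipo-Clo cells and 30537834 UMIs in 9653 Lipo-PBS cells.

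The members and gene lists were chosen with earlier results of these data known, and the core genes and the limits on mesenchymal and neutrophil UMIs were set after the values were seen. Groups came from the sample labels. Doublets were not removed in the reported values: Scrublet (scanpy 1.11.5) called 1 cell per library by its automatic threshold, and an alternative left out the 632 and 633 highest scores (7.11% and 7.12% of kept cells). Members were scaled to 10000 UMIs per cell, log-transformed and clustered with leidenalg 0.10.2 (1000 variable genes, 10 principal components, 15 neighbours, resolution 0.6, seed 1), and a cluster took a name with at least 3 markers of a list. B cells had at least 3 UMIs over Cd79a and Cd79b.

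For levels, UMIs of a library's members were added up and expressed per 1000000 UMIs (CPM). Ratios divide Lipo-Clo by Lipo-PBS and are given as log2, with exact conditional intervals for a pair of Poisson counts. Ratios of shares of cells used the same Poisson intervals, which are too wide for large shares. Single shares have Clopper-Pearson intervals, and all intervals are at the 95% level and computed with scipy 1.17.1. Genes were named where they belong to the lists and have at least 20 UMIs, or are among the 10 largest ratios in either direction at 50 UMIs without mitochondrial and haemoglobin genes, or lead the members or a cluster. Of the genes this rule names, 1 is not reported here. Single cells picked out for their Ccr7 and Ccl22 UMIs were chosen after their values were seen. The ratio step was tested on simulated data. Alternatives covered the limits of the rule, the filters on cells and genes, doublets, depth, clustering, the fold limit and the scaling (edgeR 4.0.16 and DESeq2 1.42.0 gave scaling factors only).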

Additional observations from a re-analysis of the deposited data

How the results depend on the processing

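No paired analysis was possible because the study has 1 library per condition. The share of members among kept cells had a log2 ratio of 0.19, which became -0.10 with a class II limit of 5 UMIs and -0.46 with a Ptprc denominator, but 0.51 (0.03 to 0.99) with a limit of 20 UMIs and 0.59 (0.03 to 1.16) without the clusters led by matrix genes, where the counting interval did not include 0. The lower cDC2 core share in Lipo-Clo kept its direction under the 7 alternatives tried on it. Its Poisson intervals, too wide for such shares, reached 0 after thinning and without Scrublet doublets. Subtypes taken from UMIs over the whole marker lists gave a cDC2 log2 ratio of 0.01 (-0.58 to 0.60). The cluster-based log2 ratio of the cDC1-like share was -0.96 without members over 1% mesenchymal UMIs, and that of the cDC2-like share -1.06 after thinning to 1000 UMIs, against 0.52 and 0.36, values not read as a difference between conditions. No cDC2-like cluster was found without those members or with variable genes short of 2-fold, no cDC1-like cluster after thinning, and with each library clustered on its own no cDC1-like cluster and a cDC2-like one in Lipo-PBS alone. The counts of genes higher and lower at 2-fold, 304 and 617, became 147 and 250 after thinning, 576 and 735 in cDC2 core cells alone, 1110 and 2348 with every gene of at least 1 UMI, 56 and 92 with a UMI in at least 25% of members, 779 and 1166 at 1.5-fold, and 61 and 104 at 50 UMIs.

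Without members of at least 50 neutrophil UMIs the log2 ratios of Cstdc5, Stfa1 and Retnlg were -0.74, -1.52 and -1.06. With at least 20 class II UMIs required, Tagln was at 0.54, Acta2 at 0.22, H2-Ab1 at -0.055 and Cd74 at -0.086. In cDC2 core cells Tagln was at 0.53 and Acta2 at 0.26. With the same mixture of clusters in both libraries H2-Ab1 was at -0.026, Cd74 at -0.071, Col1a2 at 0.11 and Fosb at 0.019. Without members over 1% mesenchymal UMIs H2-Aa, H2-Ab1, H2-Eb1 and Cd74 were at -0.064, -0.13, -0.074 and -0.18. The cause of these changes was not tested.

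Medians of gene lists that differed from the reported value by more than the median counting error (interval half-range) of a list's genes were those of the class II chains (0.014 at 20 class II UMIs, 0.018 with matched clusters, 0.092 thinned, -0.074 without mesenchymal-rich members), the plasmacytoid list (-1.06 thinned), the epithelial list (-0.14 in cDC2 core cells), the neutrophil list (1.66 with matched clusters, 1.21 thinned, 1.70 without neutrophil-rich members), the mesenchymal list (-0.63 at 20 class II UMIs, -0.15 with matched clusters, -1.18 thinned, -0.59 without mesenchymal-rich members and -0.71 in cDC2 core cells), the smooth muscle list (-0.45 at 20 class II UMIs, -2.52 thinned and -0.51 in cDC2 core cells) and the erythroid list (-1.86 without Scrublet doublets, -2.36 at 20 class II UMIs, -1.05 thinned, -1.47 without mesenchymal-rich and -1.60 without neutrophil-rich members, and -2.29 in cDC2 core cells). Within that error, the median of class II presentation outside the rule went from 0.11 to -0.18 without mesenchymal-rich members, the macrophage median went from -0.60 to -0.014 with fewer than 3 C1q UMIs, and the cDC1 median from 0.29 to -0.24 with matched clusters, -0.12 without mesenchymal-rich members and -0.28 in cDC2 core cells.

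Depth and cell number set limits: 17 cDC1 core cells and 9 cells with Ccr7 or Ccl22 leave wide intervals, and a share of 0 among 87 members allows up to 4.15%. With 1 library per condition, differences between conditions and between libraries cannot be told apart.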
